A study of Mus musculus with 6 samples.

Results

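The genes described here are 10 components of JAK-STAT signalling: the kinases Jak1, Jak2 and Tyk2, the transcription factors Stat3, Stat5a, Stat5b and Stat6, and the inhibitors Socs2, Socs3 and Cish. They were taken by gene symbol from a deposited table of RPKM (read counts scaled to gene length and to the reads of the library), where all 10 were found among 11417 genes. The table holds 2 poly(A) RNA libraries of each of BC44, HC11 and C57MG, which are established lines labelled as mouse mammary epithelium. All cells were labelled untreated and grown on plastic, and were harvested 2 days after plating. All media contained 10% serum. Insulin was at 5 µg/ml for BC44 and HC11, both in RPMI1640, and at 10 µg/ml for C57MG, in DMEM. Epidermal growth factor (EGF, 10 ng/ml) was added for HC11 alone. Prolactin, glucocorticoids and cytokines were not listed among the additions. Line and medium cannot be told apart. The labels do not say whether the 2 libraries of a line came from separate cultures, so p-values measure only the spread between these libraries, which may be technical.

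Cytokine receptors such as those for prolactin, growth hormone and interleukin 6 have no kinase activity of their own and signal through JAK kinases bound to their intracellular tails. Activated JAKs phosphorylate STAT proteins, which pair, enter the nucleus and bind DNA at elements of the form TTCNNNGAA. CISH and several SOCS proteins are induced by STATs and feed back on the receptors and kinases. In the mammary gland prolactin acts through JAK2 and STAT5 to drive alveolar growth and milk protein genes, whereas LIF and STAT3 act in involution after weaning. HC11 is widely used as a line that makes beta-casein after hormone priming.

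Estimated depth lay between 14110000 and 18310000 reads per library, and between 9706 and 9895 genes had at least 1 RPKM. The 10 epithelial markers found among 12 looked for summed to 4852 and 5063 RPKM in BC44 and 2268 and 3154 in HC11, but to 65.5 and 137.1 RPKM in C57MG. Epcam was at 0.949 and 0 RPKM in C57MG, and Cldn3 was at 0 in both libraries of C57MG and of BC44. The luminal keratins Krt8 and Krt18 were low in BC44 too, at 0.051 and 0 RPKM on average, whereas the basal keratin Krt14 was at 2726 ± 14.4 RPKM (SD, n = 2) there. The 11 mesenchymal markers summed to between 433.5 and 551.8 RPKM in BC44 and HC11 and to 3882 and 4257 in C57MG. Most of the sum was Fn1 and Sparc in BC44 and HC11 (each between 142.8 and 302.9 RPKM) and Vim in C57MG. Krt14 made up most of the epithelial sum in C57MG, at 118.0 and 64.8 RPKM. Of the 10 epithelial markers, 3 in C57MG replicate 1 and 1 in replicate 2 reached 1 RPKM. The epithelial label of C57MG was therefore not borne out by most of these markers, with Krt14 as an exception. Of 8 leukocyte markers Cd68 and Lyz2 were analysed, with sums of 1.52 to 3.00 RPKM in BC44 and HC11 and 20.0 to 21.9 in C57MG. Of 8 endothelial and adipocyte markers Pecam1 and Cdh5 were analysed, and they summed to between 0.252 and 2.38 RPKM.

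On the log2(RPKM + 1) scale the line means spanned the widest range for the inhibitor Socs3 and for Stat5a, and the narrowest for Stat6 and the kinases Jak2 and Tyk2. In the ratio of mean RPKM, Cish (12.4) came before Stat5a (12.0). HC11 held the highest Socs3, Socs2, Cish and Stat3, C57MG the highest Stat5a, Stat5b and Jak1, and BC44 the lowest Socs3, Stat5a and Stat5b. In such bulk RNA, fewer expressing cells and less RNA per cell cannot be told apart. Differences were tested with limma on log2(RPKM + 1), and a gene passed at a Benjamini-Hochberg adjusted p under 0.05 over the 10759 genes tested. Between BC44 and HC11, 6 of 10 members passed, all 6 higher in HC11, including Cish, which reached the minimum for testing only through HC11. Of all tested genes 47.7% passed in that comparison, 23.0% higher in HC11 and 24.7% higher in BC44. Between BC44 and C57MG 7 members passed, all higher in C57MG, where 71.7% of all genes passed, 34.1% higher in C57MG and 37.5% higher in BC44. Between HC11 and C57MG 7 members passed, 4 higher in HC11 and 3 in C57MG. The 4 again include Cish, so a difference from HC11 was built into the testing of 1 of them. Of all genes 70.5% passed in that comparison, 37.4% higher in HC11 and 33.2% higher in C57MG. The share of members passing against C57MG was thus close to that of all genes. The libraries of the lines did not overlap for 9 members in BC44 against HC11, for 8 in BC44 against C57MG and for all 10 in HC11 against C57MG, beside 73.0%, 87.9% and 86.2% of all tested genes. Of the 7 members passing in BC44 against C57MG, 4 still passed when any single library of those lines was left out, and Jak2, Stat3 and Cish did not.

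**Figure D1:**
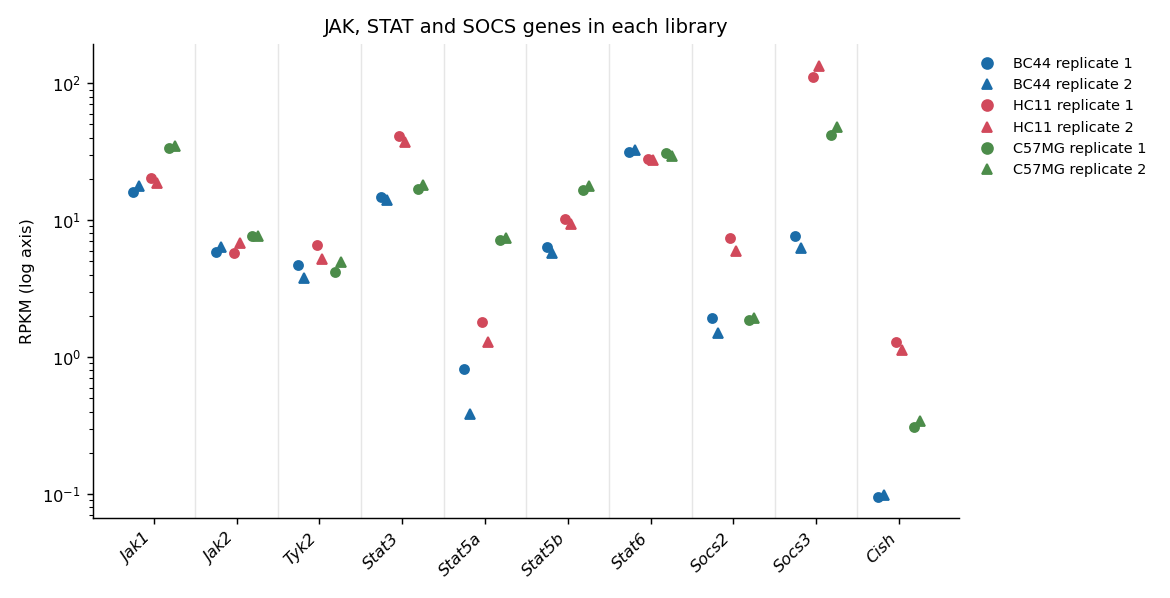
RPKM on a log axis of the 10 genes in each of the 6 libraries, with circles for replicate 1 and triangles for replicate 2 and one colour per line. HC11 lies highest for Stat3, Socs2, Socs3 and Cish, C57MG for Jak1, Stat5a and Stat5b, and the Stat6 points of all lines lie between 27.6 and 32.5 RPKM.

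The median log2 difference of the members was -0.65 for BC44 against HC11, -0.29 for BC44 against C57MG and 0.10 for HC11 against C57MG, beside 0.02, 0.04 and 0.03 for all tested genes. Regardless of sign, the median size was 0.65, 0.29 and 0.77 for the members and 0.30, 0.57 and 0.53 for all tested genes. BC44 and HC11 were thus further apart in the median member than in the median gene, whereas BC44 and C57MG were closer. These are descriptions of 10 chosen genes.

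**Figure D2:**
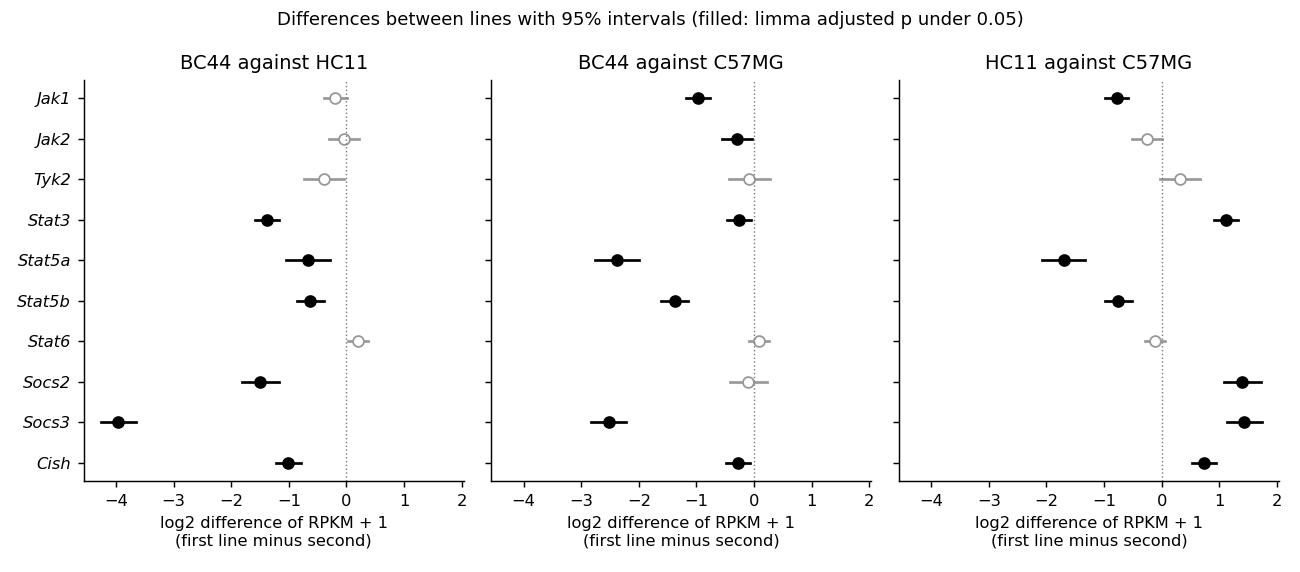
Log2 difference of RPKM + 1 between the lines named above each panel, first line minus second, with bars for 95% intervals from limma and filled points for genes with an adjusted p under 0.05. Socs3 is the farthest left in BC44 against HC11 at -3.96, and Stat6 and Tyk2 are open in every panel.

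Jak1 (ENSMUSG00000028530), which serves interferon, interleukin 6 and common gamma chain receptors, was the most abundant of the kinases in every library and was highest in C57MG. It was at 16.1 and 17.8 RPKM in BC44 replicates 1 and 2, 20.2 and 18.8 in HC11, and 33.6 and 34.9 in C57MG. Both C57MG libraries lay above all others, and the BC44 and HC11 libraries lay close together without overlap. C57MG was higher by a log2 difference of 0.97 than BC44 (SE 0.09, limma adjusted p 3.64e-05) and by 0.78 than HC11 (SE 0.09, adjusted p 0.000138). In means this was a ratio of 2.02 and 1.76. Between BC44 and HC11 the difference was -0.19 with a 95% interval of -0.40 to 0.02 and did not pass (adjusted p 0.113).

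Jak2 (ENSMUSG00000024789), the kinase of the prolactin, growth hormone and erythropoietin receptors, varied little. It was at 5.83 and 6.37 RPKM in BC44, against 5.76 and 6.85 for HC11 and 7.71 and 7.72 for C57MG. The BC44 and HC11 libraries overlapped, and C57MG lay above both lines. The difference of BC44 from C57MG was -0.30 (SE 0.11, limma adjusted p 0.0444), a call at the edge of the threshold that failed with a pseudocount of 0.1 (adjusted p 0.051). BC44 and HC11 differed by -0.04 with a 95% interval of -0.30 to 0.22 (adjusted p 0.803), so neither line can be placed above the other. HC11 against C57MG gave -0.26 (adjusted p 0.0713), and -0.37 without HC11 replicate 2 (adjusted p 0.0254).

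Tyk2 (ENSMUSG00000032175), which pairs with Jak1 or Jak2 at interferon and interleukin 12 type receptors, did not pass between any lines. Its levels were 4.74 and 3.81 RPKM in BC44, against 6.63 and 5.24 for HC11 and 4.17 and 4.96 for C57MG. HC11 lay highest without overlapping the others, and BC44 and C57MG overlapped. The widest difference was -0.39 for BC44 against HC11, with a 95% interval of -0.74 to -0.05 and a limma adjusted p of 0.0631. Without HC11 replicate 2 it was -0.54 and passed (adjusted p 0.0306), as did HC11 against C57MG (0.32 with all libraries, 0.46 and adjusted p 0.0345 without that one).

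Stat3 (ENSMUSG00000004040), the main effector of the interleukin 6 family, was highest in HC11. It was at 14.8 and 14.1 RPKM in BC44, against 41.0 and 37.2 for HC11 and 16.9 and 18.1 for C57MG. Both HC11 libraries stood above the other 4, and the BC44 libraries lay below those of C57MG. The ratio of mean RPKM was 2.71 for HC11 over BC44 (log2 difference 1.38 in size, SE 0.09, limma adjusted p 2.25e-05) and 2.24 over C57MG (1.12, SE 0.09, adjusted p 2.16e-05). BC44 was lower than C57MG by only 0.26 (adjusted p 0.03), which did not pass when any single library of these lines was left out (adjusted p 0.0573 to 0.179).

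Stat5a (ENSMUSG00000004043), the STAT that prolactin acts through in the mammary gland, was highest in C57MG and low in BC44. It was at 0.825 and 0.386 RPKM in BC44, against 1.82 and 1.28 for HC11 and 7.13 and 7.37 for C57MG. The 3 lines did not overlap, and the BC44 libraries differed from each other by more than those of C57MG in proportion. The ratio of means was 12.0 for C57MG over BC44 (log2 difference 2.37 in size, SE 0.16, limma adjusted p 7.99e-06) and 4.67 over HC11 (1.70, SE 0.16, adjusted p 5.55e-05). Between BC44 and HC11 the difference was -0.67 (SE 0.16, adjusted p 0.0116). It was -0.48 and did not pass without BC44 replicate 2 (adjusted p 0.0729), and it was -1.28 with a pseudocount of 0.1.

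Mesenchymal genes abundant in C57MG were also measured in BC44. The 11 markers were at 0.578% to 35.3% of their C57MG mean in BC44 replicate 1 (median 1.71%) and at 1.82% to 35.7% in replicate 2 (median 3.08%). Stat5a was at 11.4% and 5.33% of its C57MG mean in the same libraries. These shares lay inside the ranges, but above 9 of the 11 markers in replicate 1 and above 6 in replicate 2.

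Stat5b (ENSMUSG00000020919), the close paralog that growth hormone acts through in liver, followed the same order of lines as Stat5a over a narrower range. It was at 6.32 and 5.73 RPKM in BC44, against 10.3 and 9.41 for HC11 and 16.6 and 17.9 for C57MG. No line overlapped another, and all 3 differences passed. C57MG was higher by 1.38 than BC44 (SE 0.10, limma adjusted p 1.12e-05) and by 0.75 than HC11 (SE 0.10, adjusted p 0.000335), and BC44 was lower than HC11 by 0.63 (adjusted p 0.00185). Stat5b exceeded Stat5a in every library on this length-scaled measure: the ratio was 2.33 and 2.43 in C57MG, 5.64 and 7.34 in HC11, and 7.66 and 14.9 in BC44. Stat5b, Stat5a and Stat3 lie next to each other on chromosome 11 in that order (RefSeq, GRCm38.p6). Of the 3839 stretches of 50 bases in the longest coding Stat5a transcript, 15.8% also occur in Stat5b (GENCODE M21), and no other pair among the 10 genes shares any. How the authors assigned reads from such stretches is not given in the sources used here, so the split between Stat5a and Stat5b is uncertain.

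Stat6 (ENSMUSG00000002147), the effector of interleukin 4 and interleukin 13, was nearly level across the lines. It was at 31.3 and 32.5 RPKM in BC44, against 27.8 and 27.6 for HC11 and 30.8 and 29.4 for C57MG. The lines did not overlap, but their means spanned only 27.7 to 31.9 RPKM. None of the 3 differences passed. The widest was 0.20 for BC44 against HC11, with a 95% interval of 0.02 to 0.37 and a limma adjusted p of 0.0671 that became 0.0455 after quantile normalization.

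Socs3 (ENSMUSG00000053113), which binds the interleukin 6 receptor chain gp130 and blocks JAKs, varied most of the 10 genes. It was at 7.64 and 6.28 RPKM in BC44, against 111.6 and 134.7 for HC11 and 41.8 and 47.7 for C57MG. The lines were separated without overlap, and HC11 ranked Socs3 above 96.0% of all genes in the table, against 87.4% in C57MG and 42.6% in BC44. The ratio of means was 17.7 for HC11 over BC44, 6.43 for C57MG over BC44 and 2.75 for HC11 over C57MG. On the log2 scale these were 3.96 in size (SE 0.13, limma adjusted p 1.44e-06), 2.53 (SE 0.13, 1.81e-06) and 1.44 (SE 0.13, 4.07e-05).

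Socs2 (ENSMUSG00000020027), a regulator of growth hormone signalling, was higher in HC11, and the other lines were not separated. It was at 1.937 and 1.497 RPKM in BC44, against 7.47 and 5.92 for HC11 and 1.86 and 1.94 for C57MG. Only the HC11 libraries stood apart, and those of BC44 and C57MG overlapped. HC11 exceeded BC44 by a ratio of means of 3.90 (log2 difference 1.5 in size, SE 0.14, limma adjusted p 0.000121) and C57MG by 3.53 (1.40, SE 0.14, adjusted p 6.41e-05). BC44 and C57MG differed by -0.10 with a 95% interval of -0.42 to 0.22 (adjusted p 0.542).

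Cish (ENSMUSG00000032578), a classical STAT5 target that restrains prolactin and growth hormone receptors, was the lowest of the 10 genes in every line and was highest in HC11. It was at 0.096 and 0.098 RPKM in BC44, against 1.28 and 1.13 for HC11 and 0.310 and 0.344 for C57MG. The lines did not overlap, but Cish was above the minimum of 1 RPKM for testing only in the HC11 libraries, so a difference from HC11 was built into its being tested. Log2 differences were -1.01 for BC44 against HC11 (SE 0.09, limma adjusted p 0.000106), -0.27 for BC44 against C57MG (adjusted p 0.0256) and 0.73 for HC11 against C57MG (adjusted p 0.000211). With a pseudocount of 0.1 they were -2.73, -1.12 and 1.61, so the scale sets their size. Quantile normalization gave -0.54 for BC44 against C57MG and 0.41 for HC11 against C57MG. The ratio of means was 12.4 for HC11 over BC44 and 3.69 over C57MG. The BC44 values correspond to an estimated 4 and 5 reads by the longest coding transcript, or 9 and 11 by the union of exons, so the level in BC44 is imprecise. Without a C57MG or BC44 library the difference between those lines did not pass (adjusted p 0.0802 to 0.232), and Cish was not tested without either HC11 library.

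Promoter sequence is shown for the inhibitor genes Cish and Socs3 because both differed between all 3 lines and their promoter windows hold the STAT element. Each line runs 5′ to 3′ along the gene's strand, from RefSeq (GRCm38.p6), and capitals mark matches to TTCNNNGAA, a motif that reads alike on both strands. For Cish the stretch is chr9:107296559-107296678 on the plus strand, from 100 bases before the start site to base 20 of the transcript, and the matches begin at bases 1 and 12. For Socs3 it is chr11:117969447-117969566 on the minus strand, and the match begins at base -154 from the start site.
Cish: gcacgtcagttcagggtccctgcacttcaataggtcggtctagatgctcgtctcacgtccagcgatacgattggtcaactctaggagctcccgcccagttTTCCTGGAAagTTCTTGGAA
Socs3: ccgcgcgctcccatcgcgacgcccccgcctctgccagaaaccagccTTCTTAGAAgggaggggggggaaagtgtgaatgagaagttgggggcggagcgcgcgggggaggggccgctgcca
The windows searched run from 250 bases before to 50 bases after each start site. They were found for 9 of the 10 genes, and those of the other 7 (Jak1, Jak2, Tyk2, Stat3, Stat5a, Stat5b and Stat6) held no match. Among all 32851 windows of that length in RefSeq, 8.30% held at least 1 match and 0.457% held 2 or more. The matches are letters in a sequence, and binding was not measured. The authors' build is named as mm9 in the submitters' processing notes, and these coordinates belong to GRCm38 alone.

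The make-up of each family differed between the lines. Summed RPKM of the measured JAK genes was 31.7 and 32.3 in BC44, against 34.9 and 33.2 for HC11 and 46.3 and 48.7 for C57MG. Jak1 held 50.9% and 55.1% of that sum in BC44, against 57.9% and 56.6% for HC11 and 72.5% and 71.8% for C57MG. Jak3, known mainly from lymphoid cells, held 15.7% and 13.4% in BC44 but 1.83% and 2.14% in C57MG. Within the sum of Stat3, Stat5a, Stat5b and Stat6, Stat6 held the largest share in BC44 (58.8% and 61.7%) and C57MG (43.1% and 40.4%), whereas Stat3 did so in HC11 (50.7% and 49.3%). Among the SOCS genes and Cish, Socs3 held 65.8% and 70.6% in HC11, while Socs5 held the largest share in BC44 (50.8% and 51.8%) and C57MG (48.0% and 47.2%). These shares describe RNA of 2 libraries a line and were not tested.

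**Figure D3:**
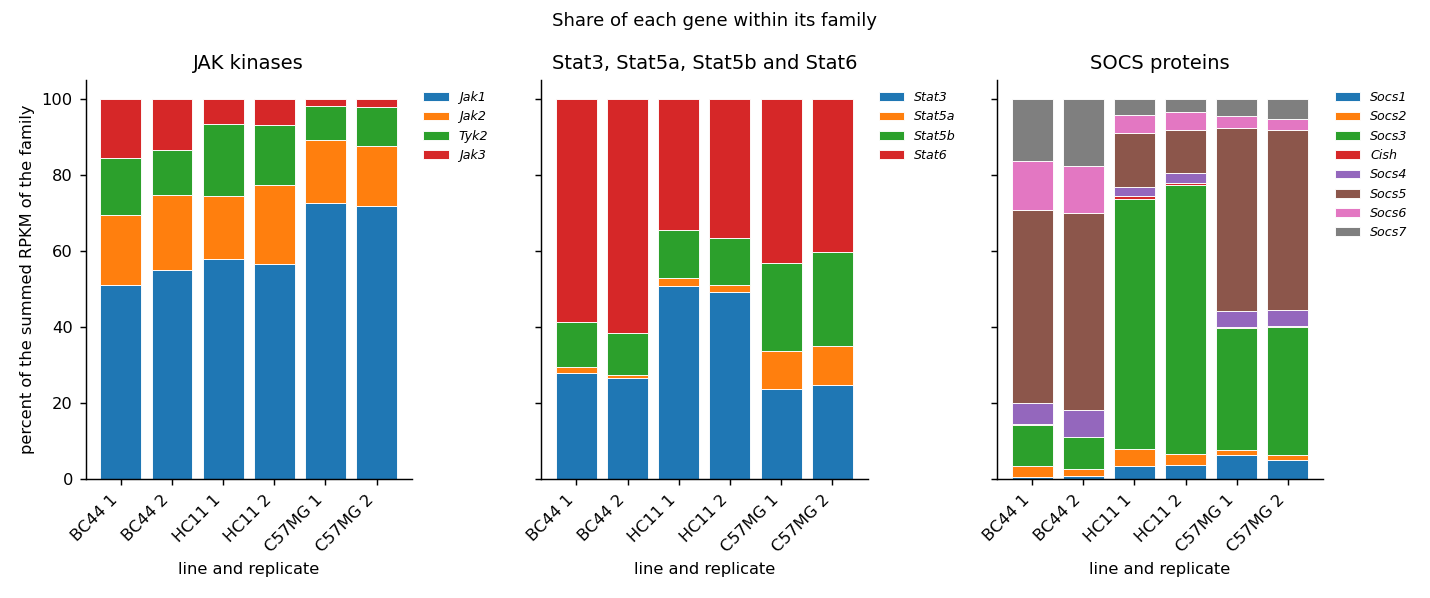
Percent of the summed RPKM of the JAK genes, the 4 STAT members and the SOCS genes taken by each gene, in stacked bars for the 6 libraries. Stat3 and Socs3 take their largest parts in the HC11 bars, and Jak1 in the C57MG bars.

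Of the 7 other JAK, STAT and SOCS genes reported here, 4 passed in BC44 against HC11 (3 higher in BC44), 6 in BC44 against C57MG (3 in each direction) and 4 in HC11 against C57MG (2 in each direction). The last count includes Stat2 (adjusted p 0.0409 from limma), which did not pass with a pseudocount of 0.1 (0.0643) or without any one of 5 libraries (0.0548 to 0.227; it passed only without HC11 replicate 2). The median differences of the 7 genes were 0.12, -0.27 and -0.20 in that order. Of all tested genes 47.7%, 71.7% and 70.5% passed in those comparisons, with 24.7%, 37.5% and 37.4% higher in the line named first. Socs1, an inhibitor of interferon signalling, was at 0.448 and 0.611 RPKM in BC44, against 6.00 and 6.92 for HC11 and 8.16 and 7.02 for C57MG. BC44 was lower than both other lines, by a log2 difference of 2.29 in size from HC11 (limma adjusted p 1.02e-05) and 2.49 from C57MG (1.62e-06). Jak3 was highest in BC44 at 4.96 and 4.34 RPKM, against 2.27 and 2.31 in HC11 and 0.848 and 1.04 in C57MG, and passed in all 3 comparisons (largest adjusted p 0.00101). Socs5 was highest in C57MG at 62.7 and 66.8 RPKM, above HC11 by 1.47 (adjusted p 6.28e-06). Stat2, an interferon effector, was at 1.90 and 1.67 RPKM in BC44, against 2.16 and 2.57 for HC11 and 3.02 and 3.29 for C57MG.

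Of 22 receptor chains looked for, 16 were analysed, and of these Prlr and Lifr were not tested. Epor, Lepr, Cntfr, Csf3r, Il7r and Csf2rb were not analysed here. Most of the 14 receptor chains tested passed as higher in C57MG. Against BC44, 13 were higher in C57MG and 1 was lower. Against HC11, 9 were higher in C57MG and 2 were lower. The 13 and the 9 include Il11ra1 and Il2rg, which reached the minimum only through C57MG. A difference from C57MG was thus built into the testing of those genes. Of all tested genes, 34.1% and 33.2% passed as higher in C57MG than in BC44 and HC11, and 23.0% as higher in HC11 than in BC44. Between HC11 and BC44, 11 chains were higher in HC11 and 1 was lower. Those 11 include Ghr, which did not pass without either BC44 library or HC11 replicate 2 (limma adjusted p 0.0838 to 0.141), and Osmr, which did not pass without either BC44 library (0.0534 to 0.0702). The median difference of the list, Il11ra1 and Il2rg included, was -2.05 for BC44 against C57MG, -0.61 for BC44 against HC11 and -0.91 for HC11 against C57MG. The summed leukocyte markers (20.0 to 21.9 RPKM in C57MG, most of it Lyz2) and mesenchymal markers (3882 and 4257 RPKM) were also highest in C57MG, and their part in these receptor levels was not tested.

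Il6st encodes gp130, the shared signalling chain of the interleukin 6 family. It was at 52.8 and 49.3 RPKM in C57MG against 5.32 and 6.90 in BC44 and 9.75 and 11.5 in HC11. C57MG stood above the others by a log2 difference of 2.88 from BC44 and 2.17 from HC11 in size (limma adjusted p 1.05e-06 and 5.18e-06). Osmr, the oncostatin M chain that pairs with gp130, was at 26.2 and 29.1 RPKM in C57MG, 2.61 and 2.51 in BC44 and 3.57 and 3.80 in HC11, and passed against C57MG in both lines (adjusted p 3.22e-07 and 6.41e-07). Il6ra, the ligand-binding chain for interleukin 6, was at 12.7 and 13.7 RPKM in C57MG and between 2.72 and 3.58 in the other libraries (adjusted p 1.02e-05 and 1.16e-05 for BC44 and HC11 against C57MG). The chains for interleukin 6 and oncostatin M were thus highest in the line with an intermediate Socs3. Lifr stayed under 1 RPKM in every library, at 0.937 and 0.986 in C57MG, and was not tested.

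The prolactin receptor was barely detected. Prlr was at 0.102 and 0.114 RPKM in HC11, was listed at 0 in both libraries of BC44 and of C57MG, and was not tested. Ghr, the growth hormone receptor, was at 17.7 and 18.4 RPKM in C57MG, 2.78 and 2.49 in BC44 and 3.41 and 5.11 in HC11. C57MG exceeded BC44 by a log2 difference of 2.39 and HC11 by 1.87 (limma adjusted p 6.84e-06 and 2.91e-05). Il13ra1, a chain of the interleukin 13 receptor, was at 18.5 and 17.6 RPKM in HC11, 23.9 and 22.3 in C57MG, and 0.074 and 0.494 in BC44. Its BC44 values were 0.320% and 2.14% of the C57MG level, beside a lowest share of 0.578% and 1.82% among the mesenchymal markers there. Crlf2, a receptor chain for the cytokine TSLP, was highest in HC11, at 11.9 and 13.6 RPKM. It was at 5.63 and 3.94 RPKM in BC44 and at 0.167 and 0.098 in C57MG. HC11 exceeded C57MG by a log2 difference of 3.60 (limma adjusted p 9.85e-07), or 5.80 with a pseudocount of 0.1.

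Of 19 ligands looked for, 8 were analysed. Il6, Il11, Csf3, Il13 and Tslp reached the minimum for testing only through HC11, so a difference from HC11 was built into their being tested, and no count is drawn from the list. Il6 was at 58.2 and 90.3 RPKM in HC11, 1.17 and 0.895 in C57MG and 0 and 0.105 in BC44. Lif, a STAT3 activator of mammary involution, was at 55.0 and 99.2 RPKM in HC11, 2.89 and 4.47 in BC44 and 0.903 and 0.656 in C57MG. HC11 stood above the other lines for both ligands, by log2 differences over C57MG of 5.18 for Il6 and 5.40 for Lif (limma adjusted p 2.17e-06 for Lif). Csf3, encoding the STAT3-activating factor G-CSF, was at 230.7 and 594.8 RPKM in HC11, and its highest value elsewhere was 0.162. Clcf1 did not share this order, at 14.1 and 13.2 RPKM in C57MG, 6.63 and 12.6 in HC11, and 3.10 and 2.58 in BC44 (HC11 against C57MG -0.52, adjusted p 0.0909). Without HC11 replicate 2 that difference was -0.94 and passed (adjusted p 0.000657). Ctf1, another interleukin 6 family ligand, was highest in BC44 on average, at 6.97 and 5.92 RPKM, with 5.73 and 3.94 in HC11 and 3.50 and 3.62 in C57MG, and passed only in BC44 against C57MG (0.71, adjusted p 0.00504).

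**Figure D4:**
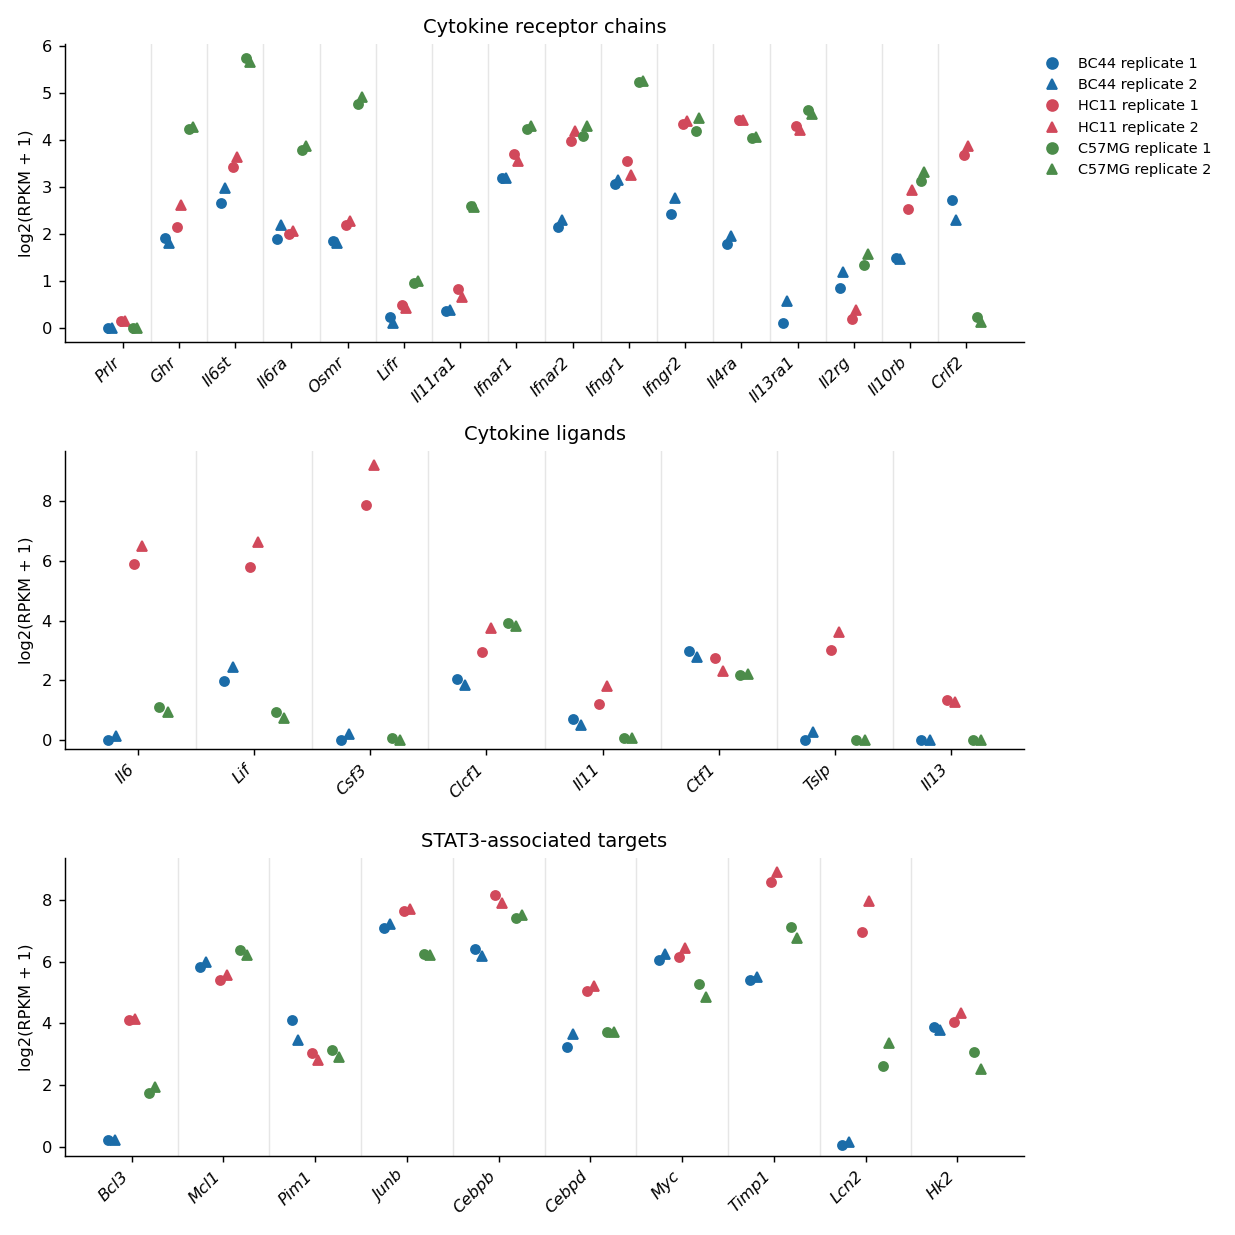
Levels as log2(RPKM + 1) of every analysed receptor chain, ligand and STAT3-associated target, with a circle and a triangle for replicates 1 and 2 of each line. C57MG lies highest for Il6st, Il6ra, Osmr and Ghr, and HC11 for Il6, Lif, Csf3 and Lcn2.

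Regulators of the pathway (PIAS proteins, phosphatases, SH2B adaptors and ubiquitin ligase parts) showed no common direction. Of 16 tested, 10 passed in BC44 against HC11 (7 higher in BC44) and 10 in BC44 against C57MG (6 higher in BC44). In HC11 against C57MG 9 passed (4 higher in HC11). Their median differences were 0.21, 0.01 and -0.06 in that order. Of all tested genes 47.7%, 71.7% and 70.5% passed, with 24.7% and 37.5% higher in BC44 and 37.4% higher in HC11. Nmi, a STAT-interacting protein, was lowest in BC44 at 2.22 and 2.35 RPKM, with 7.94 and 7.88 in HC11 and 12.4 and 13.5 in C57MG (adjusted p from limma 2.85e-05 and 1.18e-06 for BC44 against HC11 and C57MG). Sh2b2, a JAK-binding adaptor, was highest in HC11 at 22.6 and 24.6 RPKM and lowest in C57MG at 5.07 and 5.42, a difference of 1.98 (adjusted p 3.78e-06).

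Of 10 genes associated with STAT3, 8 passed in BC44 against HC11 with 6 higher in HC11. In HC11 against C57MG 9 passed with 8 higher in HC11, and in BC44 against C57MG 9 passed with 5 higher in C57MG. Of all tested genes 47.7%, 70.5% and 71.7% passed in that order. In the same order, 23.0% were higher in HC11, 37.4% in HC11 and 34.1% in C57MG. The median difference of the 10 genes was -1.10, 1.40 and -0.33 in that order. Lcn2, encoding an acute phase iron-carrier protein, was at 123.9 and 249.7 RPKM in HC11, 5.10 and 9.30 in C57MG and 0.03 and 0.1 in BC44. The order of lines for Lcn2 was that of Socs3, and all 3 differences passed (largest limma adjusted p 0.000159). By line means, 5 of the 10 had the order HC11, C57MG, BC44 (Bcl3, Cebpb, Cebpd, Timp1 and Lcn2), 3 had HC11, BC44, C57MG (Junb, Myc and Hk2), Mcl1 was highest in C57MG and Pim1 in BC44. Within these orders BC44 did not pass against C57MG for Cebpd (limma adjusted p 0.114). Nor did it pass against HC11 for Myc (0.483) and Hk2 (0.162). The share of all genes with each order was not counted here. Several of these genes are known to answer to other pathways too.

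Of 14 genes looked for as mammary STAT5 targets, 4 were analysed, namely Ccnd1, Bcl2l1, Bcl6 and Pim2. All 4 passed in BC44 against HC11 (3 higher in HC11) and in BC44 against C57MG (2 in each direction). In HC11 against C57MG 2 passed, both higher in HC11. Of all tested genes 47.7%, 71.7% and 70.5% passed in those comparisons, with 23.0% higher in HC11 in the first and 37.4% in the last. The casein genes Csn2 and Csn3 and the alveolar factor Elf5 were not analysed here. Bcl6, which STAT5 represses in several cell types, was highest in BC44 at 7.14 and 7.60 RPKM, against 2.89 and 4.12 in HC11 and 2.14 and 2.68 in C57MG (limma adjusted p 0.00245 and 0.000165). Pim2, a survival kinase induced by cytokines, was highest in HC11 at 4.59 and 4.82 RPKM, with 2.99 and 3.24 in BC44 and 2.02 and 2.34 in C57MG. It passed against C57MG (adjusted p 0.000254) and against BC44 (adjusted p 0.00887), the latter not without BC44 replicate 1 (adjusted p 0.0566). BC44 was higher than C57MG (adjusted p 0.015), but not past the threshold without BC44 replicate 2 (0.0775) or C57MG replicate 1 (0.132).

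Genes with the most similar profile were sought for the 3 members with the widest range on the log2(RPKM + 1) scale (Socs3, Stat5a and Socs2), by the Euclidean distance between centred log2(RPKM + 1) values over the 6 libraries. Nearest to Socs3 were Lrig1 (distance 0.21), Tm4sf1 (0.55) and Glrx (0.70). Lrig1, which restrains EGF receptors, was at 2.88 and 2.03 RPKM in BC44, against 44.0 and 55.5 for HC11 and 16.8 and 16.9 for C57MG. Nearest to Stat5a were Decr1 (0.16), Arsa (0.18) and Vwa5a (0.30), all highest in C57MG. Nearest to Socs2 were Tmem94 (0.17), Kctd11 (0.23) and Trib3 (0.24), all highest in HC11. These profiles rest on 3 lines. With a pseudocount of 0.1 Cish, at 2.73, would span a wider range than Socs2, at 1.91.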

How the data were processed

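Poly(A) RNA of 6 libraries was analysed. The deposited values are RPKM per gene and library, made by the authors. The submitters' processing notes name STAR and mm9, without versions or roles. The read counter, gene lengths and gene filter are not given in the sources used here. The model was fitted in R 4.3.3 with limma 3.58.1 to log2(RPKM + 1) (trend, two-sided, all 6 libraries sharing 1 spread) for the 10759 genes with at least 1 RPKM in at least 2 libraries. P-values were adjusted by Benjamini-Hochberg within each comparison, at a threshold of 0.05, and 95% intervals are unadjusted. On simulated data of 10759 genes the model called 191 and 192 of 200 genes changed by 1.5 (log2) in BC44 against HC11 and against C57MG. Each comparison had 10 wrong calls. Noise was normal, and only those 200 genes were changed, whereas 47.7% and 71.7% of all tested genes passed in the data. The 200 were drawn from genes above a set mean level, so recovery of low genes such as Cish was not tested. Fold changes on this scale understate low genes.

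Depth was estimated from steps in low values with GENCODE M21 exon lengths. Of these values (132 to 220 a library), 75.0% to 83.6% fell within 0.15 of a whole read. For a depth fixed beforehand chance gives 30.0%. Each depth was picked from many candidates by this same share, which raises it. A floor of 3 reads was 0.0819 to 0.106 RPKM for a gene of 2 kb, counting error only. Members, the 6 pathway lists and the 4 marker lists were chosen with earlier results of these data known. Named were the 10 members, a fixed set of pathway genes, the widest non-overlapping passing gene per list and comparison, and the nearest profiles, apart from an item that is not reported here. Python 3.11.15, pandas 2.3.3 and matplotlib 3.10.9 served for tables and figures.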

Additional observations from a re-analysis of the deposited data

How the results depend on the processing

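Alternatives changed the pseudocount (0.1), the filter (none, or a mean of at least 5 RPKM), the scaling (median-ratio or quantile), the libraries in the model, the trend, the variance (robust) and the replicate block, and left out each library in turn. With a mean of at least 5 RPKM only 6 members were tested, and 3 passed in BC44 against HC11 and 4 in HC11 against C57MG. Leaving out each library gave 5 to 6 members passing in BC44 against HC11, 4 to 6 in BC44 against C57MG and 6 to 8 in HC11 against C57MG. With the replicate block 6, 7 and 7 members passed in the same order, as without it. Replicate differences correlated across genes at 0.354 for BC44 with HC11, -0.039 for BC44 with C57MG and 0.038 for HC11 with C57MG. In BC44 against HC11, 5350 of all tested genes passed with the block and 5129 without it. Whether BC44 and HC11 libraries of the same number were handled together was not tested. All reversals were of differences that had not passed. Leaving out each library, the difference of BC44 from HC11 ranged from -0.146 to 0.07 for Jak2 and from -0.14 to 0.16 for Il6ra. That of BC44 from C57MG ranged from -0.206 to 0.048 for Tyk2, from -0.215 to 0.019 for Socs2 and from -0.028 to 0.189 for Csf3, which was -0.019 after quantile normalization. The cause of these was not tested. Depth limits the levels of Cish in BC44, of Prlr in all lines, of Il6 in BC44, and of Csf3 in BC44 and C57MG.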

Other observations

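The genes in both paragraphs were chosen after their values were seen. Tslp, a ligand of Crlf2, was at 7.08 and 11.3 RPKM in HC11, at 0 and 0.202 in BC44, and was listed at 0 in C57MG. Tslp and this receptor chain were thus both highest in HC11. Tslp, like Il13, reached the minimum for testing only through HC11. Il13, a ligand that signals through Stat6, was at 1.52 and 1.39 RPKM in HC11 and listed at 0 in the other 4 libraries. Il4ra, the receptor chain shared by interleukins 4 and 13, was at 20.4 RPKM in both HC11 libraries, 15.4 and 15.6 in C57MG and 2.46 and 2.86 in BC44, a log2 difference of 2.55 in size between BC44 and HC11 (limma adjusted p 2.26e-06). The level of Stat6 itself was nearly even across these lines.

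Among the STAT3-associated genes, Bcl3 was at 16.1 and 16.8 RPKM in HC11, 2.36 and 2.85 in C57MG and 0.165 and 0.161 in BC44. Timp1, an inhibitor of matrix metalloproteinases, was at 382.9 and 482.3 RPKM in HC11, 139.6 and 108.5 in C57MG and 41.8 and 44.6 in BC44. Both are among the 5 of the 10 listed genes whose means had the order of lines seen for Socs3. Pim1 was highest in BC44, at 16.3 and 10.1 RPKM against 6.09 to 7.77 in the other 4 libraries (limma adjusted p 0.012 against HC11 and 0.0114 against C57MG).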
